A study of Mus musculus with 4 samples.

Results

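Pdcd1lg2 Il18r1 double-positive cells were single cells of the mouse bone marrow stem and progenitor gate in which transcripts of both genes were captured. A cell was chosen by its measured counts of unique molecular identifiers (UMIs, captured transcript copies): 1 or more of Pdcd1lg2, 1 or more of Il18r1, under 5 of Elane, under 3 of Car1 and 0 of Cd79a. The last 3 limits leave out granulocyte-committed, erythroid and B cells. Cells were first kept if they had 500 to 7500 detected genes and under 10% mitochondrial UMIs. The rule found 1359 double-positive cells among 37344 kept cells. Because the rule used these 5 genes, their levels in the chosen cells describe the choice and are not a finding.

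The cells came from 4 droplet libraries, 1 per genotype, each made from the pooled bone marrow of 5 mice aged 8 to 12 weeks. Marrow was enriched for Kit by beads and sorted for lineage-negative cells with Sca-1 and Kit (LSK cells). All 4 groups carried Vav1-iCre, a recombinase under a promoter active throughout blood formation, on 1 allele, and per the design text the mice were bred with an EGFP reporter of NF-κB activity. The control group had Vav1-iCre alone. The second group carried Ikk2-CA flox/+, a kinase made constitutively active by the changes S177E and S181E and inserted at the R26 locus behind a floxed stop. The third carried Jak2 V617F flox/+, an activated form of the kinase behind several cytokine receptors, and the double mutant carried both alleles. With 1 library per genotype no difference between genotypes could be tested against animals, and no p-value is given. Intervals are 95% and cover counting error only.

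Pdcd1lg2 encodes PD-L2, a surface ligand of the inhibitory receptor PD-1 that is best known from dendritic cells and macrophages. Il18r1 encodes the ligand-binding chain of the interleukin-18 receptor, which pairs with the chain encoded by Il18rap and signals through Myd88 and Irak kinases to NF-κB. Ikk2 (gene symbol Ikbkb) phosphorylates the inhibitor encoded by Nfkbia, which frees NF-κB to enter the nucleus and to switch on, among others, Nfkbia itself, Relb and the lymphotoxin gene Ltb. Jak2 passes signals to STAT5, whose known targets include Socs2.

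Since both chosen genes and Ltb were detected together in these cells, the stretches upstream of their start sites are shown with matches to motifs of the factors that the alleles act on. The sequences are RefSeq promoter windows on GRCm38.p6, limited to bases outside annotated exons. Capitals mark matches, either to the kappaB consensus or to the STAT site TTCNNNGAA, searched on both strands.
Pdcd1lg2 (chr19:29410669-29410918, plus strand): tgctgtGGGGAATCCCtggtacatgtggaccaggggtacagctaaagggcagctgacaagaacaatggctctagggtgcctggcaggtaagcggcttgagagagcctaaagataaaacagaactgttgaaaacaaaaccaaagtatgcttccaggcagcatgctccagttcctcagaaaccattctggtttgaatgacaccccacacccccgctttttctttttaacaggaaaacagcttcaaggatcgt
Il18r1 (chr1:40465811-40465969, plus strand): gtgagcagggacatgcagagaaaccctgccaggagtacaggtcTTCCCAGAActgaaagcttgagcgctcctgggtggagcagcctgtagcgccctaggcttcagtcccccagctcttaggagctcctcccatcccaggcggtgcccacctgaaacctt
Ltb (chr17:35194257-35194438, plus strand): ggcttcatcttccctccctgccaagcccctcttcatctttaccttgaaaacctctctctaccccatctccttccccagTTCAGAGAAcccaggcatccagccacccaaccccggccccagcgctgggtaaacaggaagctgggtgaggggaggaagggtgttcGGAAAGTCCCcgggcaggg
The Pdcd1lg2 stretch held 1 kappaB match, which began 244 bases before the start site, and no STAT match. The Ltb stretch held a kappaB match that began 87 bases and a STAT match that began 172 bases before the RefSeq start. That start lies inside the annotated Ltb gene, which begins at base 35194439, directly after the printed stretch. Il18r1 has several start sites, and the STAT match shown lies 152 bases before one of them. That site is window 3 of Il18r1 and lies inside the annotated gene. The same window held another STAT match outside the printed stretch. Windows 1 and 2, the first of which ends at the annotated gene start, held no STAT match. No kappaB match was found in the Il18r1 windows. Among 32851 promoter windows of 250 bases, 3.90% held a kappaB match, 7.02% a STAT match and 10.6% at least 1 of them. A match describes the letters of a window, and neither its use nor the lack of one in these cells was measured.

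The kept cells numbered 5268 to 14156 per library, and the median UMIs per kept cell were 10606 in control, 17726 with Ikk2-CA, 11106.5 with Jak2 V617F and 24915 in the double mutant. Depth therefore differed between libraries in the same direction as the shares of double-positive cells. Pairs of libraries shared 16 to 64 barcodes. The share of kept cells outside the limits on Elane, Car1 and Cd79a was 10.0% in control, 30.8% with Ikk2-CA, 5.15% with Jak2 V617F and 6.26% in the double mutant, and most of the excluded Ikk2-CA cells held Cd79a (2262 cells with 1 or more UMIs). Cells without a Xist UMI made up 36.1%, 80.3%, 100% and 83.7% of double-positive cells with 5000 or more UMIs, and 41.6%, 75.4%, 99.6% and 68.9% of the others, where, as in all lists below without names, control comes first, then Ikk2-CA, then Jak2 V617F and the double mutant last. The sorting genes were present: Kit was at 195, 122, 200.4 and 99.5 UMIs per 1000000 UMIs (CPM, summed over the cells) in the double-positive cells of these libraries, and Ly6a, which encodes Sca-1, at 135, 296, 202 and 245.

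Double-positive cells were frequent in both libraries with Ikk2-CA and rare in the other pair. They made up 37 of 8055 kept control cells (0.459%, 0.324 to 0.633), 548 of 9865 Ikk2-CA cells (5.55%, 5.11 to 6.03), 87 of 14156 Jak2 V617F cells (0.615%, 0.493 to 0.758) and 687 of 5268 double mutant cells (13.0%, 12.1 to 14.0). The share with Ikk2-CA was 12.1 times that of control (8.66 to 17.4), and the share in the double mutant 28.4 times (20.4 to 40.7). The Jak2 V617F share was 1.34 times that of control (0.901 to 2.02), an interval that includes equal shares. The double mutant share was 2.35 times the Ikk2-CA share (2.10 to 2.63). Of cells within the 3 lineage limits, the double-positive share was 0.511%, 8.03%, 0.648% and 13.9%.

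The rank of the double mutant above Ikk2-CA depended on the depth and the denominator, while both stood above control and Jak2 V617F throughout. After each cell within the lineage limits was thinned to 5000 UMIs, with 838, 405, 1361 and 146 shallower kept cells left out (counted in and outside the limits), 10 of 6525 control cells (0.153%, 0.0735 to 0.282), 98 of 6640 Ikk2-CA cells (1.48%, 1.20 to 1.80), 19 of 12119 Jak2 V617F cells (0.157%, 0.0944 to 0.245) and 67 of 4794 double mutant cells (1.40%, 1.08 to 1.77) were double-positive. The double mutant share was then 0.947 times the Ikk2-CA share (0.683 to 1.31), whereas Ikk2-CA stood 9.63 times above control (5.02 to 20.7) and the double mutant 9.12 times (4.66 to 19.9). At 10000 UMIs the shares were 0.155%, 3.68%, 0.289% and 4.65%, and the double mutant share was 1.26 times that of Ikk2-CA (1.04 to 1.53). The plot of shares by depth shows both sets. Over all kept cells the thinned shares in the double mutant and with Ikk2-CA were 1.31% and 1.04% at 5000 UMIs, a ratio of 1.26 (0.911 to 1.74), and 4.35% and 2.58% at 10000 UMIs, a ratio of 1.68 (1.39 to 2.04). The description of these cells as most frequent in the double mutant therefore holds for the deposited counts and at 10000 UMIs with either denominator. At 5000 UMIs the intervals of the ratio include equal shares with either denominator.

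**Figure D1:**
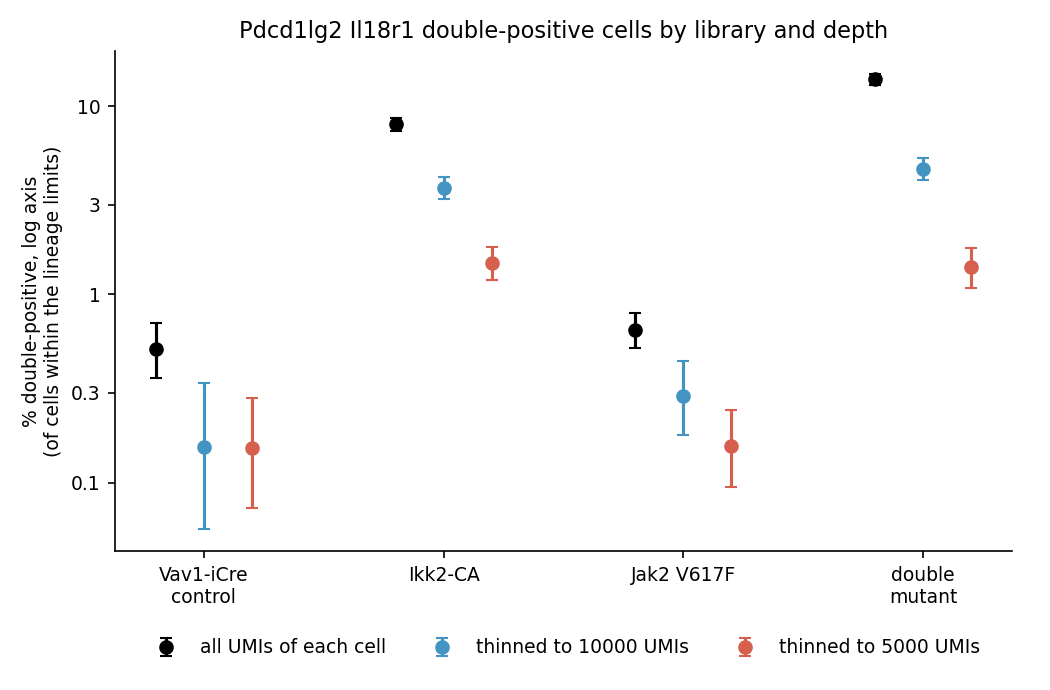
Share of Pdcd1lg2 Il18r1 double-positive cells among kept cells within the lineage limits (percent, log axis) in each library, with all UMIs of each cell and after thinning to 10000 or 5000 UMIs. Points are shares and bars exact binomial 95% intervals; at 5000 UMIs Ikk2-CA (1.48%) and the double mutant (1.40%) overlap, and both lie above control (0.153%) and Jak2 V617F (0.157%).

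The levels of the single genes followed the same division. Pdcd1lg2 was at 5.04 CPM in control cells within the limits, 23.004 with Ikk2-CA, 6.42 with Jak2 V617F and 22.2 in the double mutant. Il18r1 was at 7.97, 22.8, 7.21 and 24.5 in the same libraries. At 5000 UMIs Pdcd1lg2 was detected in 2.80%, 12.7%, 3.42% and 11.8% of cells, and Il18r1 in 3.94%, 10.5%, 3.43% and 10.9%. As a background, kept cells with 5 or more Elane UMIs, whose median depth was 27769.5, 35339, 24073 and 51982 UMIs against 10364, 17033.5, 10783 and 24190.5 within the limits, showed Pdcd1lg2 in 1.04%, 0.914%, 0.269% and 0.465% and Il18r1 in 0.346%, 0.183%, 0.538% and 0.930% at 5000 UMIs. Both genes therefore lay above this Elane background in every library, and least so in control and with Jak2 V617F. The Elane shares rested on 289, 547, 372 and 215 cells. Cells with 1 or more Cd79a UMIs showed Pdcd1lg2 in 1.15%, 3.89%, 2.27% and 8.99% at 5000 UMIs. Il18r1 was found in 2.69%, 5.21%, 5.30% and 4.49% of them, with Jak2 V617F more often than within the limits.

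Detection of Pdcd1lg2 and Il18r1 in the same cell was compared with what their separate shares give. The product of the separate shares corresponded to 29.4 control cells, 485 Ikk2-CA cells, 68.9 Jak2 V617F cells and 584 double mutant cells, against the 37, 548, 87 and 687 counted. The counted number was 1.26, 1.13, 1.26 and 1.18 times the product. At 5000 UMIs 10, 98, 19 and 67 cells were counted where the product gave 7.21, 88.4, 14.2 and 61.6. At 5000 UMIs Il18r1 was found in 11.6% of Ikk2-CA cells with Pdcd1lg2 (9.54 to 14.0) and in 10.3% of those without (9.54 to 11.1), and in the double mutant in 11.8% (9.29 to 14.8) and 10.8% (9.84 to 11.7). The intervals of cells with and without Pdcd1lg2 overlapped in both libraries at that depth. With all UMIs they did not, at 27.4% (25.4 to 29.4) against 22.9% (21.8 to 24.1) with Ikk2-CA and 38.0% (35.8 to 40.3) against 29.0% (27.4 to 30.7) in the double mutant. At 10000 UMIs they overlapped with Ikk2-CA (18.4%, 16.2 to 20.7, against 16.5%, 15.4 to 17.6) and not in the double mutant (22.6%, 20.01 to 25.4, against 17.1%, 15.8 to 18.3). Over the 3 depths the counted number was 1.09 to 1.24 times the product of the separate shares in the Ikk2-CA and double mutant libraries, and 0.679 times in control at 10000 UMIs, on 6 cells.

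Most chosen cells in the libraries without Ikk2-CA met the rule with single UMIs. Exactly 1 UMI of each gene was present in 30 of 37 control cells (81.1%), 248 of 548 Ikk2-CA cells (45.3%), 65 of 87 Jak2 V617F cells (74.7%) and 224 of 687 double mutant cells (32.6%). At least 2 UMIs of both genes were found in 1, 63, 3 and 151 cells. The highest count of Pdcd1lg2 in a cell was 2, 6, 2 and 7, and that of Il18r1 was 3, 16, 6 and 12. Just outside the rule lay 355, 1453, 871 and 1120 cells with Pdcd1lg2 only and 507, 1107, 878 and 909 with Il18r1 only. Another 0, 58, 4 and 5 cells had both genes but went past a lineage limit. Cells with neither gene numbered 6348, 3720, 11591 and 2222.

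Double-positive cells were somewhat deeper than the other kept cells. Their median UMIs were 13299 against 10601.5 in control, 18195 against 17703 with Ikk2-CA, 14042 against 11097 with Jak2 V617F and 27533 against 24514 in the double mutant. A doublet caller (Scrublet) marked 0, 208, 1 and 2 kept cells, too few in 3 libraries to count as a working call. As a substitute, the cells of highest doublet score were taken, 0.8% per 1000 barcodes of the library. These were 10.8%, 13.3%, 25.3% and 8.88% of double-positive cells against 7.96%, 8.26%, 12.5% and 4.61% of kept cells. Without them the double-positive shares were 0.445%, 5.25%, 0.525% and 12.5%. The part of doublets in the remaining results was not tested beyond that removal.

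The double-positive cells were not 1 lineage. With cells thinned to 5000 UMIs and a class counted where 2 or more of its markers were detected, 30.6% of double-positive control cells held stem cell markers (Hlf, Mecom, Procr, Mllt3, Fgd5, Hoxb5), as did 17.5% with Ikk2-CA, 32.1% with Jak2 V617F and 14.6% in the double mutant. Lymphoid-priming markers (Flt3, Dntt, Il7r, Satb1, Notch1) were held by 47.2%, 34.9%, 40.7% and 21.0%. Granulocyte-monocyte markers (Elane, Mpo, Prtn3, Ctsg, Cebpa, Csf1r) were held by 38.9%, 38.3%, 34.6% and 35.9%, although Elane was limited by the rule. Megakaryocyte markers (Pf4, Itga2b, Gp9, Gp5, Gp1bb) were held by 2.78%, 11.5%, 4.94% and 13.1%. Of these 4 classes, 38.9%, 21.7%, 28.4% and 16.6% of double-positive cells met 2 or more at once, and 25.0%, 22.3%, 23.5% and 33.7% met none. In the other kept cells, granulocyte-monocyte markers were held by 45.0%, 39.5%, 39.5% and 43.3%, and megakaryocyte markers by 5.86%, 10.6%, 6.46% and 13.6%. Of the other cells within the lineage limits, 36.9%, 17.4%, 26.8% and 16.02% met 2 or more of the 4 classes. A mix of classes was thus found in double-positive and in other cells, and was not particular to the former. The label of progenitors fits a mixed set of early cells, and no single lineage name is given to double-positive cells here.

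For stem cell and lymphoid-priming markers the shares in double-positive cells lay between those of cells with either gene alone. This place was not particular to them, since cells with neither gene also lay between. With neither gene, stem cell markers were held by 32.0%, 9.70%, 30.9% and 19.4%, and lymphoid-priming markers by 44.6%, 24.5%, 29.7% and 18.1%. Stem cell markers were held by 45.4%, 22.6%, 41.1% and 22.0% of cells with Pdcd1lg2 only, against 26.9%, 7.34%, 28.8% and 11.2% of cells with Il18r1 only. Lymphoid-priming markers ran the other way, at 39.4%, 18.6%, 24.8% and 7.55% of cells with Pdcd1lg2 only and 62.4%, 52.3%, 43.0% and 29.1% with Il18r1 only. The counting intervals of these classes, Pdcd1lg2 only and Il18r1 only, did not overlap for the stem cell or the lymphoid-priming markers in any of the 4 libraries. The intervals of the double-positive cells overlapped those of both single-gene classes for stem cell markers in control (16.3 to 48.1) and with Jak2 V617F (22.2 to 43.4), and that of 1 class with Ikk2-CA and in the double mutant. For lymphoid-priming markers they overlapped both in control and Il18r1 only with Jak2 V617F, and neither with Ikk2-CA (30.9 to 39.0) or in the double mutant (18.0 to 24.2). Granulocyte-monocyte and megakaryocyte shares did not show this order in every library: in control both were lower in double-positive cells (38.9% and 2.78%) than with Pdcd1lg2 only (42.0% and 6.03%) or Il18r1 only (45.1% and 3.27%). Single genes showed the same order. Hlf, a transcription factor of stem cells, was at 377, 106, 273 and 89.8 CPM with Pdcd1lg2 only, 328, 94.4, 237 and 70.5 in double-positive cells and 228, 42.3, 215 and 59.2 with Il18r1 only. Dntt, the terminal transferase of early lymphoid cells, was at 264, 108, 119 and 34.0 with Pdcd1lg2 only and at 824, 727, 311 and 307 with Il18r1 only. In double-positive cells Dntt was at 181, 255, 175 and 125, between the single-gene classes with Ikk2-CA, with Jak2 V617F and in the double mutant and below both in control. With neither gene Hlf was at 251, 43.7, 209 and 92.5 CPM, and Dntt at 409, 166, 179 and 97.5. These classes were split by the rule's own genes, so the comparison describes what each gene's detection goes with.

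**Figure D2:**
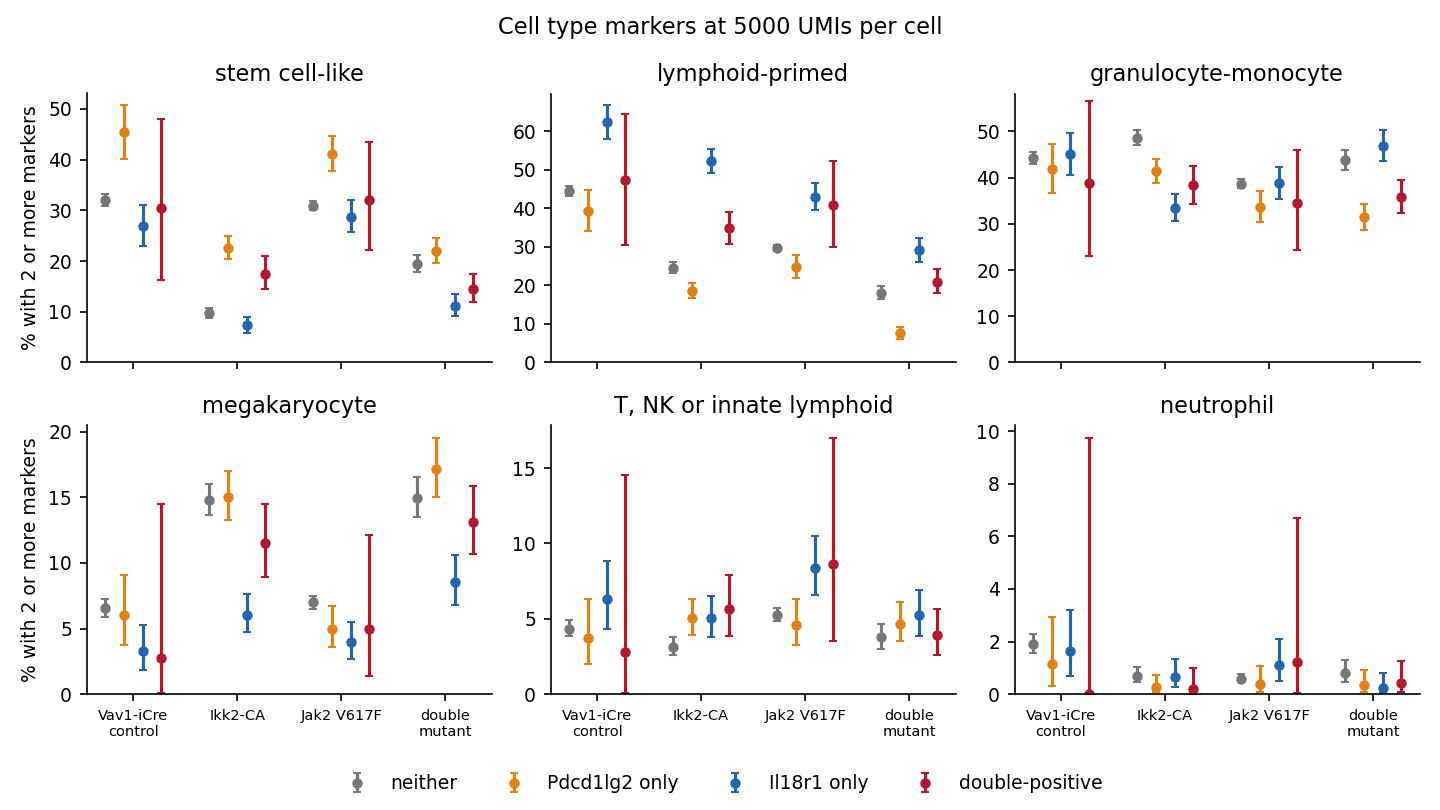
Share of cells (percent) with 2 or more markers of a cell type after thinning to 5000 UMIs, for cells within the lineage limits that had neither gene, Pdcd1lg2 only, Il18r1 only or both (double-positive), in each library. Points are shares and bars exact binomial 95% intervals. For stem cell and lymphoid-priming markers the points of double-positive cells lie between those of the single-gene classes in all 4 libraries. So do those of cells with neither gene. For stem cell markers, bars of double-positive cells overlap both single-gene bars in control and with Jak2 V617F. They overlap Pdcd1lg2 only with Ikk2-CA and Il18r1 only in the double mutant. For lymphoid-priming markers they overlap both in control, Il18r1 only with Jak2 V617F, and neither with Ikk2-CA or in the double mutant.

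Summed levels of neutrophil and B cell markers were lower in the double-positive than in the other kept cells, for B cells largely by the rule. Other mature types did not all follow. The 4 neutrophil markers (S100a8, S100a9, Ngp, Ltf) summed to 28.3, 16.7, 18.1 and 9.21 CPM, against 862, 598, 1020.0 and 637 in the other kept cells, and Ngp and Ltf were at 0 in control. The share of cells with 2 or more of these markers did not follow. At 5000 UMIs it was 0%, 0.182%, 1.23% and 0.437%, against 2.21%, 0.572%, 0.763% and 0.586% of the others. With all UMIs it was 8.11%, 3.28%, 6.90% and 2.33%, against 6.39%, 2.95%, 2.42% and 2.12%. The 4 macrophage markers (C1qa, C1qb, Adgre1, Mrc1) summed to 7.08, 2.63, 2.27 and 5.86 against 15.1, 2.85, 4.09 and 5.49, with Adgre1 at 0 in control and with Jak2 V617F and Mrc1 at 0 with Jak2 V617F. The 6 B cell markers summed to 40.7, 54.7, 29.5 and 38.3 against 231, 1138, 77.0 and 107, where Cd79a was 0 by the rule and Pax5 was also at 0 in control, with Jak2 V617F and in the double mutant. Cells with Cd79a stayed among the other kept cells, so this gap largely restates the rule. Against depth-matched cells within the lineage limits, the median log2 ratio of 5 measured B cell genes was 0, -0.05, 0 and 0.07. Plasma cell markers (Jchain, Mzb1, Igkc, Ighm) summed to 161, 461, 81.7 and 73.8 against 2736, 17445, 419 and 536. At 5000 UMIs 2 or more plasma cell markers were still held by 8.33%, 40.9%, 0% and 1.60% of double-positive cells, against 8.33%, 51.4%, 1.37% and 3.29% of the others. The dendritic class (Siglech, Ly6d, Irf8, Tcf4, Bst2) was met by 41.7%, 42.5%, 37.0% and 32.7% of double-positive cells and by 41.6%, 53.5%, 36.3% and 31.8% of the others. Siglech, its most specific marker, was at 0 in double-positive cells of control, of Jak2 V617F and of the double mutant.

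Beyond the chosen genes, 8 of 6924 compared genes (0.116%) were 1.5-fold or more higher in double-positive than in the other kept cells in each of the 4 libraries. They were Slc16a11, Podnl1, Gimap7, Ltb, Rnf150, Cd96, Zfp467 and Apobr. Genes were compared if they reached 20 CPM in either set of 1 library and 50 UMIs over both sets in every library. With comparison cells restricted to the lineage limits and matched on depth, 6 of 6904 genes (0.0869%) met the same threshold: Slc16a11, Podnl1, Gimap7, Ltb, Zfp467 and Rdh12. The choice of cells and scaling decided most of these calls: none of the 8 was among 3 genes called in cells without Mki67 or Top2a UMIs, 2 (Gimap7 and Slc16a11) were among 26 called with 2 or more UMIs of each chosen gene, and 3 (Gimap7, Podnl1 and Slc16a11) were called with TMM factors.

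Slc16a11, a monocarboxylate transporter gene, was 2-fold or more higher in each of the 4 libraries. It was at 49.6 CPM in double-positive control cells against 20.4 in the others, 52.8 against 17.8 with Ikk2-CA, 39.3 against 18.7 with Jak2 V617F and 49.2 against 21.3 in the double mutant. The ratios were 2.43 (1.61 to 3.52), 2.97 (2.71 to 3.24), 2.10 (1.57 to 2.77) and 2.30 (2.14 to 2.48). Its level in double-positive cells showed no difference from control beyond counting error, at 1.07 times control with Ikk2-CA (0.730 to 1.62) and 0.991 times control in the double mutant (0.682 to 1.5). It was detected in 29.7%, 41.8%, 27.6% and 50.9% of double-positive cells.

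Ltb encodes lymphotoxin beta, which anchors lymphotoxin to the cell surface and is a known NF-κB target. It was at 181 CPM against 104 in control, 597 against 340 with Ikk2-CA, 185 against 87.3 with Jak2 V617F and 447 against 281 in the double mutant. The ratios were 1.74 (1.42 to 2.12), 1.75 (1.71 to 1.80), 2.12 (1.86 to 2.41) and 1.59 (1.55 to 1.63). Ltb was detected in 75.7%, 98.9%, 75.9% and 97.1% of double-positive cells, against 50.1%, 86.4%, 47.6% and 86.6% of the others. Its promoter stretch is the one above that holds both motifs. Of the other higher genes, Cd96 had a STAT match and 4 had no match of either motif, while Podnl1 and Rnf150 are not in the promoter table.

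Gimap7, a GTPase gene of the immune-associated family, was at 23.02 CPM against 13.7 in control, 83.8 against 49.9 with Ikk2-CA, 33.3 against 13.7 with Jak2 V617F and 65.2 against 34.5 in the double mutant. Podnl1, which encodes a small leucine-rich matrix protein, was at 26.2 against 12.6 with Ikk2-CA and 19.2 against 11.7 in the double mutant. In control Podnl1 rested on 2 UMIs, with a ratio of 3.03 (0.363 to 11.2), and with Jak2 V617F on 9 UMIs, with a ratio of 3.93 (1.78 to 7.56). Zfp467, a zinc finger gene, was at 39.0 against 24.3, 45.2 against 23.7, 31.8 against 19.7 and 39.6 against 24.6. Cd96, a receptor of T and NK cells, was at 14.2 against 7.49, 27.3 against 17.8, 11.3 against 6.90 and 29.6 against 17.0. Apobr, a lipoprotein receptor gene, and Rnf150, a ring finger gene, had ratios between 1.54 and 1.92 in the 4 libraries. In control the intervals of Podnl1, Gimap7, Cd96, Rnf150 and Apobr reached below 1, as did that of Cd96 with Jak2 V617F.

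Levels of these 8 genes in the single-gene classes describe them further. Because the genes were chosen as higher in double-positive than in other cells, their rank there largely restates the choice. Of 32 pairs of gene and library, 26 had the highest level in double-positive cells among the 4 classes, and in 26 the cells with neither gene were lowest. Slc16a11, Podnl1 and Rnf150 were highest in double-positive cells in all 4 libraries. With Ikk2-CA, Gimap7 and Cd96 were higher with Il18r1 only (99.2 and 36.5 CPM), while Ltb, Zfp467 and Apobr were higher with Pdcd1lg2 only (602, 47.7 and 10.8). The remaining exception was Ltb in control, at 185 with Pdcd1lg2 only and 181 in double-positive cells. The plot of the 8 genes by class shows these orders.

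**Figure D3:**
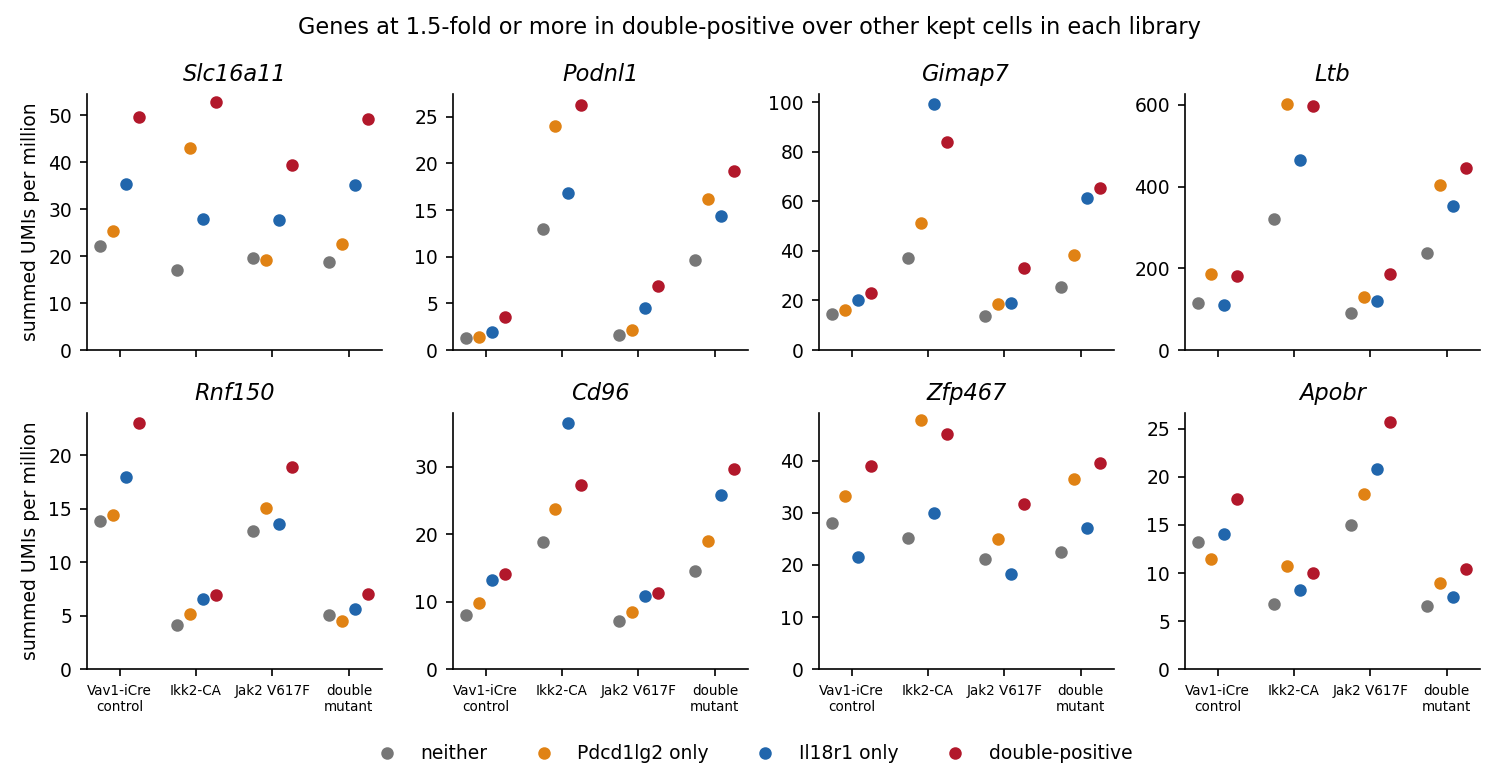
Level of the 8 genes that were 1.5-fold or more higher in double-positive than in other kept cells in each library (summed CPM, linear axis from 0), for cells with neither gene, Pdcd1lg2 only, Il18r1 only or both, without replicates. Slc16a11, Podnl1 and Rnf150 are highest in double-positive cells of all 4 libraries, while Gimap7 and Cd96 with Ikk2-CA are highest with Il18r1 only.

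Partners of the chosen genes were higher beyond counting error with Ikk2-CA and in the double mutant. In control the intervals of Cd274, Il18rap and Il1r1 include 1, as does that of Cd274 with Jak2 V617F (0.759 to 1.77). Cd274, which encodes the second PD-1 ligand PD-L1 and lies near Pdcd1lg2, was at 15.9 CPM against 12.8 in control, 23.5 against 13.9 with Ikk2-CA (ratio 1.69, 1.48 to 1.92), 18.1 against 15.3 with Jak2 V617F and 19.0 against 14.3 in the double mutant (1.33, 1.18 to 1.48). Il18rap was at 30.1 against 20.2, 17.2 against 9.34 (1.85, 1.58 to 2.15), 28.0 against 17.3 and 18.8 against 11.9 (1.57, 1.40 to 1.76). Its order of genotypes was not that of Il18r1: the levels with Ikk2-CA and in the double mutant were the lower ones. Il1r1, the interleukin-1 receptor, was at 28.3 against 21.7, 28.2 against 12.7, 31.0 against 18.0 and 21.8 against 13.9. Across cell classes Cd274 went with Pdcd1lg2, at 21.7, 25.4, 23.6 and 20.7 with Pdcd1lg2 only and 11.2, 15.9, 15.3 and 13.0 with Il18r1 only. Il18rap went with Il18r1, at 22.4, 11.8, 17.1 and 11.4 with Pdcd1lg2 only and 36.1, 21.0, 33.9 and 19.4 with Il18r1 only.

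The other members of these families differed less uniformly or were barely detected. Of the interleukin-1 and interleukin-18 receptor family, 7 of 17 listed genes were measured well enough, and 3 lay above the other cells in all 4 libraries, beside 25.0% of all 6924 genes compared. The signalling genes Myd88 (ratios 0.905 to 1.38) and Irak1 (0.935 to 1.24) did not share the difference. Il1rl1, the interleukin-33 receptor, was at 0 UMIs in control and with Jak2 V617F, and at 1.82 and 0.901 CPM with Ikk2-CA and in the double mutant, below the other cells there. Il18, the ligand, was at 31.9 against 20.7, 15.8 against 9.06, 17.4 against 15.1 and 15.2 against 13.0, above the other cells in all 4 libraries, with intervals that exclude 1 with Ikk2-CA (1.48 to 2.04) and in the double mutant (1.03 to 1.32). Pdcd1, which encodes PD-1 itself, was at 0, 3, 5 and 3 UMIs in all double-positive cells together.

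NF-κB subunits and feedback genes were slightly but broadly higher in double-positive cells of every genotype, controls included. Of 13 measured genes of this list, 11 lay above the other cells in all 4 libraries, beside 25.0% of all 6924 genes compared, and none reached 1.5-fold in all 4. The list's median log2 ratio was 0.21, 0.32, 0.39 and 0.24, against 0.04, 0.07, 0.03 and 0.03 over all genes. Nfkbia was at 104 CPM against 69.7 in control, 379 against 322 with Ikk2-CA, 114 against 87.2 with Jak2 V617F and 290.0 against 246 in the double mutant. Relb, the partner of the non-canonical pathway, was at 15.9 against 6.26 (9 UMIs), 47.7 against 34.1, 6.81 against 6.45 (9 UMIs) and 40.2 against 27.1. Birc3, an inhibitor of apoptosis induced by NF-κB, was at 21.2 against 14.6, 29.3 against 19.8, 23.4 against 13.4 and 18.7 against 14.6. Tnfaip3, the A20 feedback enzyme, had 1 UMI in control and ratios of 1.25 (1.10 to 1.42), 2.61 (1.51 to 4.20) and 1.22 (1.03 to 1.44) in the other libraries. Ehd3, a gene high with Ikk2-CA, did not differ between double-positive and other cells there (45.0 against 47.7) or in the double mutant (26.1 against 24.2).

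The counts of other lists are read against the same 25.0% of all genes that lay above the other cells in all 4 libraries. Of 16 measured genes of antigen presentation, 10 did so, with medians of 0.11, 0.24, 0.08 and 0.17. H2-Aa, an MHC class II chain, was at 127 against 82.2, 322 against 219, 113 against 99.6 and 165 against 113. Of 15 measured interferon-stimulated genes, 10 lay above in all 4, with medians of 0.52, 0.15, 0.18 and 0.18, in control larger than the NF-κB median. Of 13 measured stem cell genes, 4 lay above in all 4, with medians of 0.33, 0.67, 0.08 and 0.08. With Ikk2-CA 8 of the 13 were 1.5-fold or more higher, beside 214 of all 6924 genes compared. Against matched cells within the lineage limits the stem cell medians were 0.31, 0.43, 0.12 and 0.05. Of 18 S phase genes, 14 lay below the other cells in all 4 libraries, beside 13.9% of all genes, with medians of -0.22, -0.30, -0.32 and -0.12. Rrm2, a ribonucleotide reductase subunit, was at 47.8 against 76.9, 62.8 against 115, 43.1 against 66.8 and 64.8 against 81.9. Of 17 G2 and M phase genes, 11 lay above in all 4, with medians of 0.30, 0.11, 0.38 and 0.41. Cenpf, a kinetochore gene, was at 158 against 98.2, 147 against 107, 149.7 against 108 and 119.7 against 74.2. Mki67 or Top2a was detected in 54.1%, 70.3%, 70.1% and 80.3% of double-positive cells and 56.6%, 73.4%, 62.3% and 75.6% of the others. Depth was higher in double-positive cells, and its part in these list values was not tested beyond matching: with matched cells within the lineage limits the S phase medians were -0.33, -0.25, -0.34 and -0.15, while the G2 and M phase medians were -0.03, 0.35, 0.10 and 0.29.

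Genes lower in double-positive cells were chiefly those of neutrophils, granulocyte progenitors and the B lineage. The 42 genes (0.607%) that were 1.5-fold or more lower in all 4 libraries included granule genes of neutrophils (Camp, Ngp, Ltf, Lcn2, S100a8, S100a9, Chil3), B lineage and plasma cell genes (Ebf1, Vpreb1, Jchain, Mzb1) and the monocyte gene Ly6c2. Within the lineage limits and at matched depth, 14 genes (0.203%) were at that threshold, among them Camp, Ngp, Lcn2, S100a8, S100a9, Ly6c2, Ctsg and Mpo. Neutrophil genes were thus lower inside the limits too: against these matched cells the log2 ratio of Camp was -5.77, -5.08, -6.89 and -6.92. Camp, the cathelicidin of neutrophil granules, was at 1.77 CPM against 134 in control, 1.72 against 81.6 with Ikk2-CA, 0.756 against 144 with Jak2 V617F and 0.701 against 86.6 in the double mutant. With Pdcd1lg2 only Camp was at 2.75, 1.44, 2.61 and 14.3 CPM, so a low level was not particular to double-positive cells. It was at 39.6, 29.7, 413 and 1.05 with Il18r1 only and at 109, 95.1, 98.8 and 189 with neither gene. S100a8, a calcium-binding gene of neutrophils, was at 12.4 against 336, 7.08 against 250.4, 8.32 against 373 and 3.95 against 255. Mpo, the peroxidase of granulocyte progenitors, was at 95.6 against 724, 220.0 against 709.5, 61.2 against 415 and 174 against 629.6. Of 14 measured granulocyte-monocyte genes, 9 were 1.5-fold or more lower than in the other kept cells in all 4 libraries. The rule left cells with 5 or more Elane UMIs only among those other cells, so this count partly restates it. The list's median log2 ratio was -2.29, -1.76, -2.68 and -1.89, and -1.05, -1.27, -1.30 and -0.98 against the matched cells within the limits. Prtn3 and Ms4a3 were not called against the matched cells. Ebf1, Jchain and Mzb1 were not among the genes lower within the lineage limits.

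Double-positive cells of different genotypes were then compared with each other. Between double-positive cells with Ikk2-CA and those of control, 149 of 6396 genes (2.33%) were 2-fold or more higher and 393 (6.14%) lower. The median gene lay 0.20 lower on the log2 scale in this comparison, where only 37 control cells stood on the other side, and with the median gene set to no change the counts were 222 higher and 194 lower. The same comparison in the other kept cells found 127 higher and 160 lower genes of 6114, and 71 and 81 genes were called in both. The genotype comparisons below share libraries and are given side by side as values.

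Immediate early genes, which cells induce within minutes of a stimulus, set the Ikk2-CA cells apart. Of 14 measured genes of this list, 12 were 2-fold or more higher than in control, with a median log2 ratio of 2.05 (1.78 in the other kept cells). Fos was at 60.2 CPM in control double-positive cells, 546 with Ikk2-CA, 152 with Jak2 V617F and 52.9 in the double mutant. Nr4a1, an orphan nuclear receptor, was at 5.31 (3 UMIs), 47.4, 10.6 and 1.80. Junb was at 81.5, 366, 124 and 96.6. In the double mutant all 14 measured genes were 2-fold or more lower than with Ikk2-CA, with a median of -2.24 (-1.85 in the other kept cells), and against control the median over 10 measured genes was -0.35, with 0 higher and 1 lower. The high level was thus found in 1 of the 2 libraries with Ikk2-CA, and with 1 library per genotype the library and the genotype cannot be told apart. The plot of levels in double-positive cells shows this pattern beside the NF-κB genes.

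Some NF-κB subunit and feedback genes were higher than in control in both libraries with Ikk2-CA. Of 13 measured, 5 were 2-fold or more higher with Ikk2-CA and 0 lower, beside 2.33% and 6.14% of all genes compared. The median log2 ratio was 0.86, or 1.06 relative to the median gene. In the double mutant 3 of 11 were higher, beside 1.78% of all genes, and 6 lay above control. The median there was 0.42, or 0.64 relative to the median gene. In the other kept cells these medians were 0.80 with Ikk2-CA and 0.15 in the double mutant. Of 13 measured NF-κB target effectors, 5 were higher and 1 lower with Ikk2-CA, with a median of 0.22. In the double mutant 3 of these 13 were higher and 4 lower, with a median of -0.26. Nfkbia was 3.62 times control with Ikk2-CA (2.80 to 4.77) and 2.78 times in the double mutant (2.15 to 3.65). Ltb was 3.30 times (2.72 to 4.06) and 2.47 times (2.03 to 3.04), and Gimap7 3.64 times (2.12 to 6.86) and 2.83 times (1.65 to 5.34). With Jak2 V617F these ratios were 1.09 (0.804 to 1.503) for Nfkbia, 1.03 (0.811 to 1.31) for Ltb and 1.45 (0.765 to 2.92) for Gimap7, all with intervals that include 1. Relb was 5.91 times higher in the double mutant than with Jak2 V617F (3.10 to 13.0), on 9 UMIs in the latter.

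**Figure D4:**
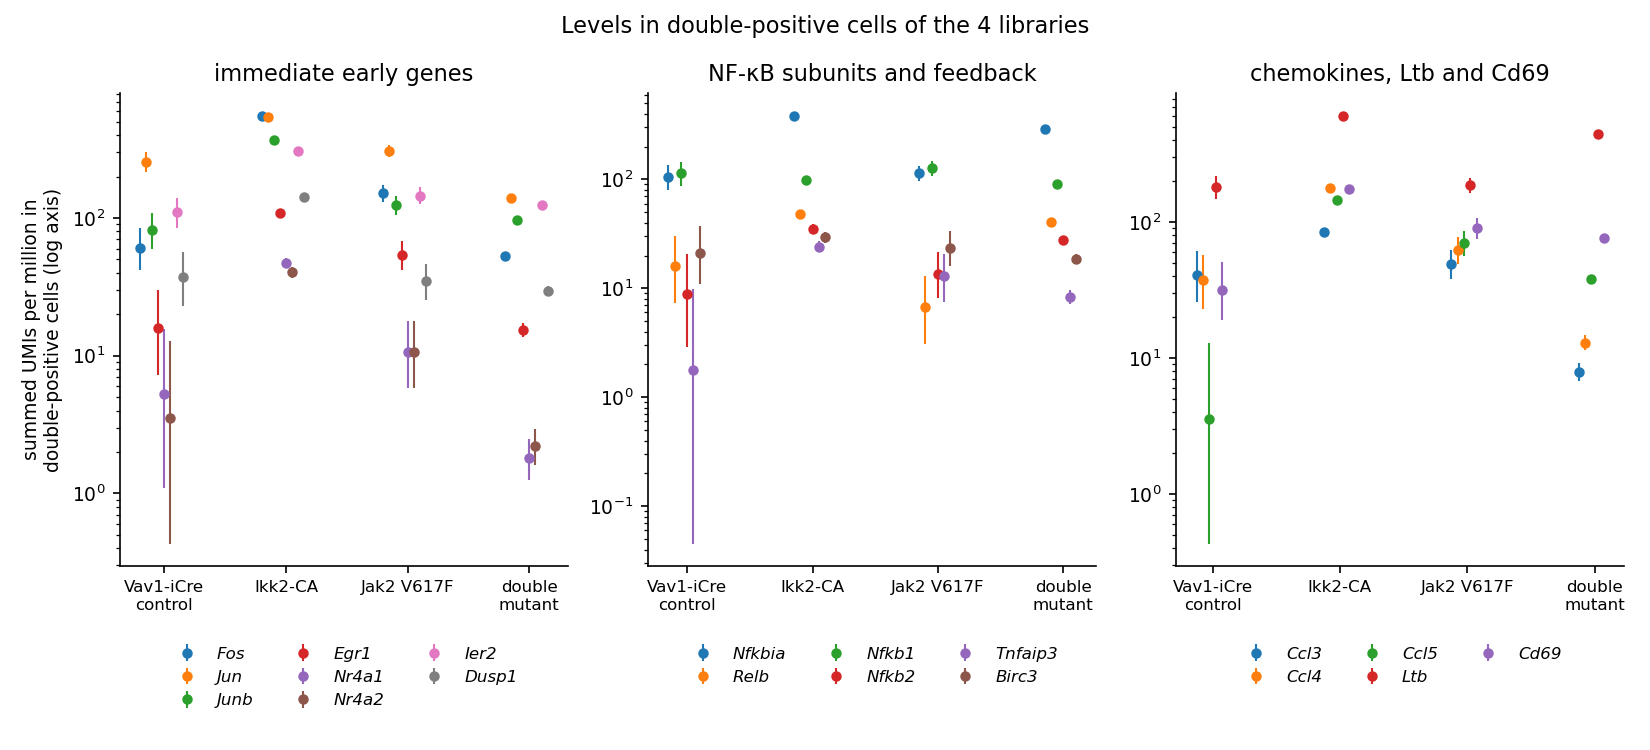
Levels in double-positive cells of the 4 libraries (summed CPM, log axis) for immediate early genes, NF-κB subunits and feedback genes, and chemokines with Ltb and Cd69. Points are levels and bars exact Poisson 95% intervals; Fos is at 546 with Ikk2-CA and at 52.9 to 152 in the other libraries, while Nfkbia and Ltb are high in both libraries with Ikk2-CA.

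Among the genes with the highest ratios over control with Ikk2-CA, Ehd3, an endosomal trafficking gene, was at 1.77 CPM in control (1 UMI), 45.0 with Ikk2-CA, 1.51 with Jak2 V617F and 26.1 in the double mutant, and its ratio with Ikk2-CA was 25.4 (4.54 to 1006). Ccl5, a T cell and macrophage chemokine, was at 3.54 (2 UMIs in 1 cell), 144, 69.6 and 38.1. Its ratios over control were 40.8 (11.3 to 337), 19.6 (5.29 to 165) and 10.8 (2.97 to 89.1). Pf4, a chemokine of megakaryocytes and stem cells, was at 15.9, 304, 21.9 and 412, and it was detected in 18.9%, 63.0%, 22.99% and 76.1% of double-positive cells. In the other kept cells Pf4 was at 99.8, 453, 86.6 and 525. Dscam, a cell adhesion gene, was at 34.9 with Ikk2-CA against 1.77 in control (1 UMI), a ratio of 19.7 (3.51 to 779.6), and the histone gene Hist1h4h at 52.2 against 3.54 (2 UMIs), a ratio of 14.7 (4.06 to 122). Ly6d, a marker of lymphoid and dendritic precursors, had 0 UMIs in control and 187 CPM with Ikk2-CA, at least 5.14 higher on the log2 scale when control is set to the floor of 3 UMIs, and 16.9 in the double mutant.

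Lower with Ikk2-CA were Wfdc17, a secreted inhibitor of myeloid cells, at 31.4 CPM against 181 in control, and the platelet and stem cell gene Mmrn1 at 3.99 against 21.2. Paqr5, a progestin receptor gene, was at 4.27 against 26.6, and Tmem158 at 3.54 against 28.3. Wfdc17, Mmrn1 and Paqr5 were also low in the double mutant, at 15.9, 2.80 and 2.40. Ifit1, an interferon-induced gene, was at 4.99 against 47.8, but 17 of its 27 control UMIs came from 1 cell, and without that cell control stood at 18.4. Of 15 measured interferon-stimulated genes, 8 were 2-fold or more lower with Ikk2-CA than in control, with a median of -1.05, and 7 in the double mutant, with a median of -0.99. In double-positive cells without a Xist UMI, 14 in control and 440 with Ikk2-CA, the first median was 0.04. The direction did not hold there, on few control cells. The share of cells without a Xist UMI differed between these libraries, as given above. Ckb, a creatine kinase, was at 7.54 against 40.7, with 16 of its 23 control UMIs in 1 cell and 12.6 in control without it.

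Against control, double-positive cells with Jak2 V617F had 69 of 5213 genes higher (1.32%) and 26 lower (0.499%), of which 11 and 3 were also called in the other kept cells. Besides Ccl5, the highest ratios were for Xcl1, a lymphotactin of NK cells (83 UMIs in 6 cells against 0), Ms4a4b (39.3 CPM against 7.08), the histone genes Hist1h2ap (288 against 53.1) and Hist1h3c (56.0 against 12.4), and Klf2 (35.5 against 7.08). Among the lowest were Tmem42, Sat1, Nutf2-ps1, Triobp and Nek7, with ratios between 0.400 and 0.441. Socs2 was at 3.54 in control (2 UMIs), 7.26 with Ikk2-CA, 20.4 with Jak2 V617F and 19.3 in the double mutant, with the higher levels in both libraries with Jak2 V617F and a ratio of 5.76 over control (1.45 to 50.02) in the first and 5.46 (1.5 to 45.2) in the second.

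In the double mutant 113 of 6364 genes were higher than in control (1.78%) and 531 lower (8.34%), or 213 and 258 with the median gene set to no change. The highest ratios were those of Pf4, Ehd3, Ccl5, Hist1h4h and the histone genes Hist1h2an (68.1 CPM against 8.85) and Hist1h3c (80.9 against 12.4). Among the lowest, Il7r, the interleukin-7 receptor, was at 2.70 against 40.7, but 17 of 23 control UMIs came from 1 cell and control stood at 10.8 without it. Itsn1, an endocytic scaffold gene, was at 2.10 against 21.2. Over Jak2 V617F, 53 of 6271 genes were higher (0.845%) and 303 lower (4.83%), or 97 and 124 with the median gene set to no change. Pf4, Ehd3, Relb, Ms4a3 and Tnfaip8l1 were among the 6 highest, and Tnfaip8l1 was at 20.3 against 4.54. Cma1, a mast cell chymase, was the remaining one, and 390 of its 448 UMIs came from 1 of 7 cells.

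The comparison of the double mutant with Ikk2-CA, the libraries with most double-positive cells, called the fewest genes of the 5 comparisons. Each other comparison had 37 control or 87 Jak2 V617F cells on 1 side, so the counts do not rank how alike the libraries are. In the other kept cells it called 12 higher and 107 lower genes. There, Jak2 V617F over control called 15 and 18, and the double mutant over Jak2 V617F 32 and 44. Against control the double mutant called 39 and 100 there, and Ikk2-CA 127 and 160. Of 5654 genes 7 were 2-fold or more higher in the double mutant (0.124%) and 56 lower (0.99%), and 42 of the 56 were also lower in the other kept cells. Besides Cma1, the higher genes named by rank were Hbb-bt (81.9 CPM against 36.4), Usp50 (32.6 against 14.5), Nutf2-ps1 (66.2 against 30.5), Lars2 (155 against 74.8) and Phpt1 (108 against 53.3). For Hbb-bt, a globin, the other kept cells went the other way (68.5 against 146). The lowest were Nr4a1 and Nr4a2 with the chemokines Ccl4 (13.0 against 179) and Ccl3 (7.91 against 84.7), and Ly86 (2.25 against 25.6) and Ly6d, genes of dendritic and lymphoid precursors. Cd74, the invariant chain of MHC class II, was at 103, 681, 141 and 332 in the order of the libraries, and H2-Aa at 127, 322, 113 and 165. Slc16a11 was at 0.930 times the Ikk2-CA level (0.839 to 1.03) and Relb at 0.844 times (0.755 to 0.944).

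A few double-positive cells carried transcripts of T, NK or innate lymphoid cells, which are known to use the interleukin-18 receptor. At 5000 UMIs, 2 or more of 8 markers (Cd3e, Cd3d, Trbc2, Gata3, Il2ra, Nkg7, Ncr1, Zbtb16) were held by 2.78%, 5.66%, 8.64% and 3.94% of double-positive cells and 4.26%, 3.32%, 5.29% and 4.10% of the others, and Cd3e was at 0 in all 4 libraries. The markers summed to 202, 239, 296 and 249 CPM in double-positive cells against 237, 165, 235 and 222. Ncr1, an NK cell receptor, had 0, 82, 23 and 0 UMIs, in 13 cells with Ikk2-CA and 7 with Jak2 V617F. Il2rb, a chain of the interleukin-2 receptor, had 0, 68, 33 and 1 UMIs. Cells with 4 or more Il18r1 UMIs numbered 0, 38, 5 and 83. At full depth, 3 or more of these markers were found in 4 of the 38 Ikk2-CA cells (10.5%) against 2.55% of cells with fewer Il18r1 UMIs, in 2 of 5 Jak2 V617F cells against 6.10%, and in 1 of 83 double mutant cells (1.20%) against 1.16%. The part of these cells in the Ccl5 and Xcl1 values above was not tested.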

How the data were processed

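Single-cell RNA of sorted LSK cells was measured in 4 libraries, 1 per genotype. The deposited values are raw counts, whole UMIs per gene and barcode and not normalised; the matrices were written by Cell Ranger 4.0.0 per the file headers, whereas the design text names Cell Ranger 3.0.1. The submitters' processing notes name the mm10 build and Seurat 4.0.0. Kept cells followed the filter stated in the design text. The UMIs of the double-positive cells, and of the other kept cells of the same library, were summed per gene and scaled to 1000000 (CPM). Genes needed 20 CPM in either set and 50 UMIs over both. Calls were 1.5-fold in each of the 4 libraries, or 2-fold between genotypes. Intervals were exact binomial (Clopper-Pearson) for shares, exact Poisson for sums and exact conditional binomial for ratios, at 95%. A gene at 0 was set to a floor of 3 UMIs. PCR copies were collapsed by UMIs, and the intervals hold no variation between animals. Depth was set equal by thinning cells to 5000 or 10000 UMIs. For matching on depth, comparison cells were summed in 10 bins cut at the UMI deciles of double-positive cells. Each bin was weighted by the UMIs of the double-positive cells in it, which balances depth without making it equal. Total counts of kept cells and their medians set the precision: control had the fewest double-positive cells.

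The genes named were the 12 highest and 12 lowest among those called in all 4 libraries, the 6 highest and 6 lowest ratios of each genotype comparison, and up to 4 genes of each of 27 lists, leaving out sex-linked genes, antigen receptors, ribosomal and mitochondrial genes and those with no proper symbol; the chosen genes, their families, sort genes and a few NF-κB and STAT5 targets were always eligible. List genes outside the first 4, the genes of cell classes and Hlf, Dntt, Ncr1 and Il2rb were singled out after their values were seen. The members and the lists were chosen with earlier results of these data known. Calculations used scanpy 1.11.5, pandas 2.3.3, matplotlib 3.10.9, scipy 1.17.1 and numpy 2.4.6 in Python 3.11.15, and TMM factors came from edgeR 4.0.16 in R 4.3.3. The calling step was tested on simulated data. Motifs were searched in RefSeq promoter windows of GRCm38.p6. Alternatives covered the thinning depth, the threshold on the chosen genes, lineage limits, doublet scores, cycling cells, scaling, expression minimums, single libraries and cells without Xist UMIs. 1 gene that the naming rule selects is not reported here.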

Additional observations from a re-analysis of the deposited data

Results flagged for a closer look

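In 5 genes the double-positive cells of 1 library stood above the other kept cells and those of another library below them, by log2 0.58 (1.5-fold) or more each way. None of these differences was tested, since each genotype has 1 library. Ccr2, a monocyte chemokine receptor, stood at a log2 ratio of 2.05 with Jak2 V617F and -2.70 in the double mutant, 4.75 apart, and 32 of its 39 UMIs in double-positive Jak2 V617F cells came from 1 cell. Trbc1, a T cell receptor constant gene, stood at 3.39 and -2.41 in the same libraries, 5.8 apart. Of its UMIs 19 of 34 came from 1 Jak2 V617F cell and all 10 from 1 double mutant cell. Il7r stood at 1.73 and -1.33 there, 3.06 apart. Cpa3, a mast cell protease gene, stood at 0.60 with Jak2 V617F and -1.10 in control, 1.7 apart, with 20 of 36 UMIs in 1 Jak2 V617F cell. Marcks, a membrane-bound kinase substrate gene, stood at 0.63 in control and -1.01 with Ikk2-CA, 1.64 apart.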

How the results depend on the processing

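Libraries of 1 per genotype, pooled mice and few control cells limit every value here; counting error is the sole error known, and depth limits the detection of Pdcd1lg2 and Il18r1. No paired analysis was possible because each genotype has 1 library, so no replicate number is shared by more than 1 sample of a group. With 2 or more UMIs of each gene the double-positive shares of kept cells were 0.0124% in control, 0.639% with Ikk2-CA, 0.0212% with Jak2 V617F and 2.87% in the double mutant. Thinned to 5000 UMIs they were 0.139%, 1.04%, 0.148% and 1.31%, and at 10000 UMIs 0.135%, 2.58%, 0.266% and 4.35%. Within the lineage limits the values were 8.03% with Ikk2-CA for all UMIs, then 0.153%, 1.48%, 0.157% and 1.40% at 5000 UMIs and 0.155%, 3.68%, 0.289% and 4.65% at 10000. Without lineage limits Ikk2-CA had 6.14%, and among cells without a Xist UMI the double mutant had 15.4%. The ratio of Ikk2-CA to control was 51.4 with 2 or more UMIs, 7.48 and 19.1 at 5000 and 10000 UMIs and 23.7 within the limits at 10000. That of the double mutant to control was 230.9, 9.44 at 5000 UMIs and 9.12 within the limits at 5000. That of the double mutant to Ikk2-CA was 4.49 with 2 or more UMIs, 1.26 and 1.68 at 5000 and 10000 UMIs, 1.73 within the limits, and 0.947 and 1.26 within the limits at 5000 and 10000.

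The 8 genes higher and 42 lower in all 4 libraries became 4 and 15 against cells within the limits, 14 lower when these were matched on depth, 3 and 7 in cells without Mki67 or Top2a UMIs (none of the 8 among the 3), 4 higher as a mean over cells, 3 higher with TMM factors or at 50 CPM or more, 22 and 66 with no CPM minimum, and 26 and 10 with 2 or more UMIs of each chosen gene (2 of the 8 among the 26). Leaving out 1 library gave 9 to 19 higher (13 without control, 19 without the double mutant) and 38 to 50 lower.

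Of genes higher and lower between genotypes, at 50 CPM or more the counts were 76 and 91 (Ikk2-CA over control), 36 and 16 (Jak2 V617F over control), 48 and 129 (double mutant over control), 36 lower (over Ikk2-CA), and 22 and 83 (over Jak2 V617F). With no CPM minimum they were 437 and 724, 375 and 1127, 54 and 235, and 247 and 781 for the comparisons other than Jak2 V617F over control. In cells without a Xist UMI they were 343 and 862, 192 and 64, and 303 and 1045 against control. With genes chosen by the other kept cells they were 214 lower, 113 and 58, 309 lower, 88 lower and 199 lower in the same order of comparisons. With the median gene set to no change they were 194 lower, 213 and 258, and 97 and 124. Jak2 V617F over control had 52 lower as a mean over cells, and the double mutant over Jak2 V617F 84 higher without the highest doublet scores. The median of interferon-stimulated genes between Ikk2-CA and control was 0.035 (-1.05 in all double-positive cells) in cells without a Xist UMI, of which control had 14. The cause of these changes was not tested. The alternatives for shares of cells without a Xist UMI, within-limits denominators, genes chosen by the other kept cells and the cell of most UMIs left out were chosen after seeing the data.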
